A study of Mus musculus with 7 samples.

Results

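The cyclin D, CDK4/6, INK4 and RB genes are the switch of the G1 phase of the cell cycle. The members described here are 10 genes chosen by name: the D cyclin genes Ccnd1, Ccnd2 and Ccnd3, the kinase genes Cdk4 and Cdk6, the inhibitor genes Cdkn2a, Cdkn2b and Cdkn2c, and the pocket protein genes Rb1 and Rbl1. They are 10 of 37620 gene identifiers in the tables, and all 10 were among the 16068 genes with enough reads to be tested. RNA came from 7 brain tumours that had grown in nude mice, which lack mature T cells, after injection of cultured mouse neural stem cells of the subventricular zone carrying oncogenic changes. Of these, 4 were GSC1 tumours, labelled lgT/Ras, and 3 were GSC2 tumours, labelled shp53, Nf1-/-, CDK4. lgT is taken here as large T antigen, shp53 as a short hairpin against p53, and Nf1-/- as loss of the gene for a Ras inhibitor. Each set of changes was present in 1 line, the age of the mice is not given in the labels used here, and the dissected tumours could include brain tissue of the host. The series calls the tumours of a line independent, and p-values below measure the spread between them.

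In a cell that is told to divide, D cyclins bind CDK4 or CDK6, and the active kinases phosphorylate the retinoblastoma protein and its relatives p107 and p130. Unphosphorylated pocket proteins hold E2F transcription factors and keep S phase genes off, and the INK4 proteins block the kinases by binding CDK4 and CDK6 directly. Large T antigen binds the pocket proteins themselves, whereas extra CDK4 acts a step above them, so the labels of the lines name 2 different points of the same pathway.

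In what follows n is 4 for GSC1 and 3 for GSC2, and errors of means are SDs. Levels are CPM, the share of a gene in the reads of its library after TMM scaling. The libraries held 18643155 to 32643408 reads on genes. Host brain tissue was gauged from 12 neuron and 12 mature oligodendrocyte markers, whose averaged log2 CPM is called the brain score; whether tumour cells made part of this signal was not tested. In GSC1, taken in the order of replicates 1 to 4 here and below, it was 6.27, 4.93, 8.62 and 8.0. GSC2, in the order of replicates 1 to 3, had scores of 6.26, 7.86 and 7.66. A mitosis score over 20 mitotic genes was 6.47, 6.95, 3.99 and 4.65 in GSC1 and 6.63, 6.0 and 5.42 in GSC2. Genes with long transcripts were low relative to genes with short ones in GSC1 replicates 3 and 4 and GSC2 replicate 3 (contrast of -0.32, -0.25 and -0.61 on the log2 scale, against 0.00 to 0.44 in the other 4). GSC1 replicates 3 and 4 thus combine the highest brain scores, the lowest mitosis scores and low long transcripts. Summed levels of the neuron markers ran from 660.6 to 5716 CPM in GSC1 and from 1043 to 3025 CPM in GSC2, and those of the oligodendrocyte markers from 663.6 to 17885 and from 2597 to 9067 CPM. The summed level of 8 astrocyte markers ran from 1976 to 14061 CPM in GSC1 and from 2707 to 7324 CPM in GSC2, and that of 9 microglia and macrophage markers from 582 to 991 and from 770.4 to 1008 CPM. The 4 choroid plexus markers varied most, from 2.39 to 8740 CPM in sum in GSC1 and from 2069 to 4703 CPM in GSC2. Of 8 neural stem cell markers none was under 9.97 CPM in any tumour. Lymphocyte markers summed to at most 5.07 CPM.

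Ccnd1, the gene for cyclin D1 and a common target of growth factor and Ras signals, had 647, 795, 110.5 and 226 CPM in the GSC1 tumours. The GSC2 tumours had 774, 697 and 555 CPM. GSC1 replicates 3 and 4 lay below every GSC2 tumour, replicate 1 lay among them and replicate 2 above all of them, so the lines overlapped. The means were 445 ± 328 CPM (SD, n = 4) and 675 ± 111 CPM (SD, n = 3), a log2 fold change of GSC2 minus GSC1 of 0.60 (SE 0.63, 95% interval -0.88 to 2.08, unadjusted p = 0.371, edgeR adjusted p = 0.9999). In bulk tissue, fewer cells of a type and less RNA per cell cannot be told apart, and this holds for every level given here.

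Ccnd2, the gene for cyclin D2, which neural progenitors use in the developing and adult brain, was the 1 member whose lines did not overlap. GSC1 tumours had 169.9, 219, 69.5 and 101 CPM of it. The GSC2 tumours had 270.0, 261 and 240.3 CPM, all above the highest GSC1 tumour and close to each other. The means were 139.7 ± 67.4 and 257 ± 15.2 CPM, with a log2 fold change of 0.88 (SE 0.39, 95% interval -0.04 to 1.80, unadjusted p = 0.0573, edgeR adjusted p = 0.9999), so Ccnd2 did not pass the test either. Of all genes tested, 5.58% had lines that did not overlap, and 3.05% did so with every GSC2 tumour higher, so 1 of 10 members is near the background. Ccnd3, the gene for cyclin D3, was nearly even across the tumours, with 59.8, 58.1, 61.2 and 86.5 CPM in GSC1 and 78.4, 60.6 and 80.9 CPM in GSC2. Its fold change on the log2 scale was 0.14 (SE 0.23, 95% interval -0.40 to 0.69). Its highest level was 1.49 times its lowest, the narrowest range of the 10 members, against 7.20 times for Ccnd1 and 3.89 times for Ccnd2.

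Set per length of the longest annotated transcript, the order of the D cyclins was Ccnd1, then Ccnd2, then Ccnd3 in 5 tumours, while in GSC1 replicates 3 and 4 Ccnd3 came before Ccnd2. Ccnd1 made up 80.3, 81.1, 52.4 and 61.2% of the D cyclin CPM per kb in the GSC1 tumours. In the GSC2 tumours its share was 76.7, 76.6 and 71.6%, between the values of the GSC1 tumours. Ccnd3 held 28.1 and 22.7% in GSC1 replicates 3 and 4 and 5.74 to 10.1% in the other tumours. The share of Ccnd2 moved least, from 12.5 to 19.5%. These shares use 1 transcript per gene and carry the length differences between libraries named above, whose part in them was not tested.

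**Figure D1:**
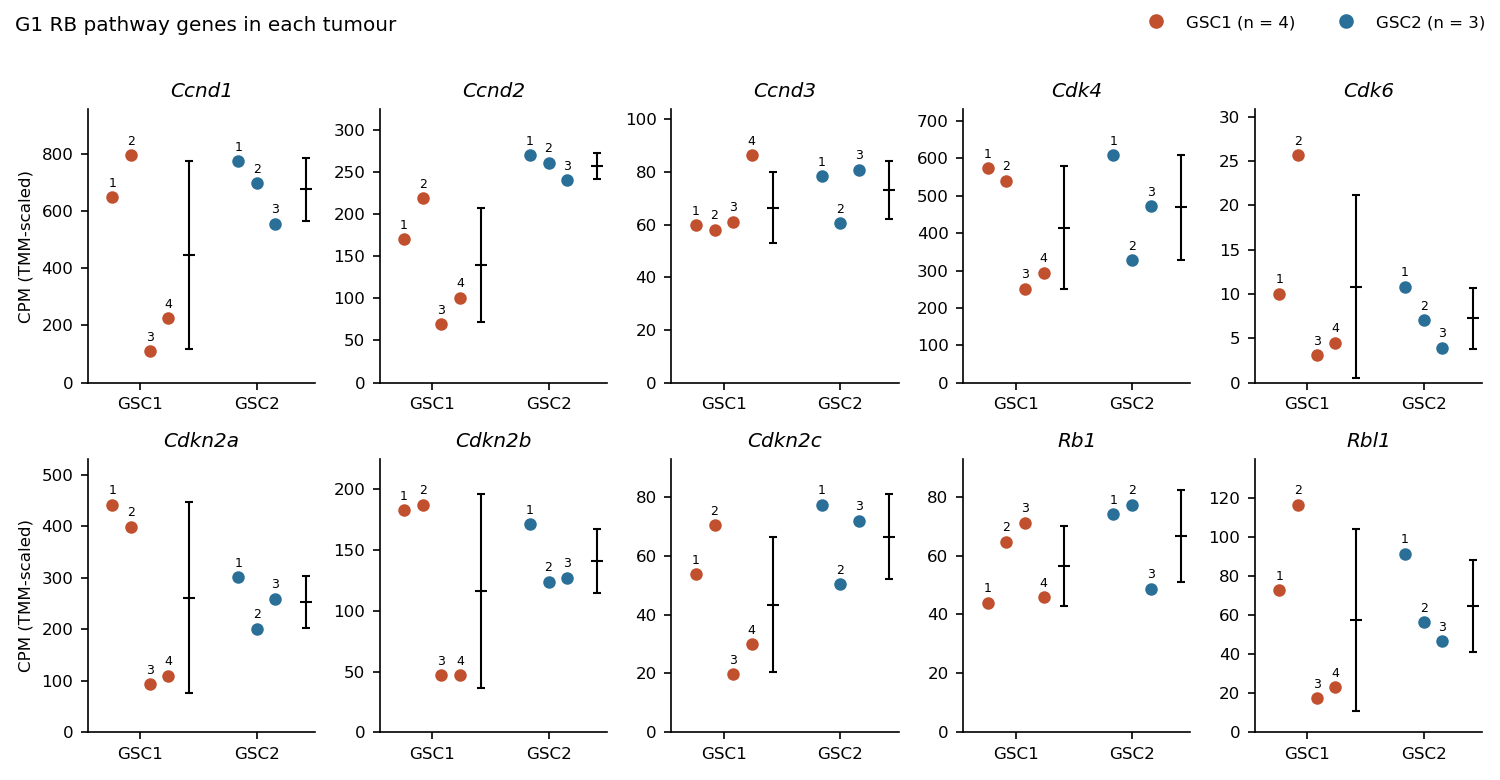
CPM (linear axis) of the 10 genes in each tumour, with the replicate number over each point and the mean ± SD of each line as a black bar (GSC1 n = 4, GSC2 n = 3). GSC1 replicates 3 and 4 are the lowest tumours for Ccnd1, Ccnd2, Cdk4, Cdkn2a, Cdkn2b, Cdkn2c and Rbl1, and in the Ccnd2 panel the 3 GSC2 tumours lie above all GSC1 tumours.

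**Figure D2:**
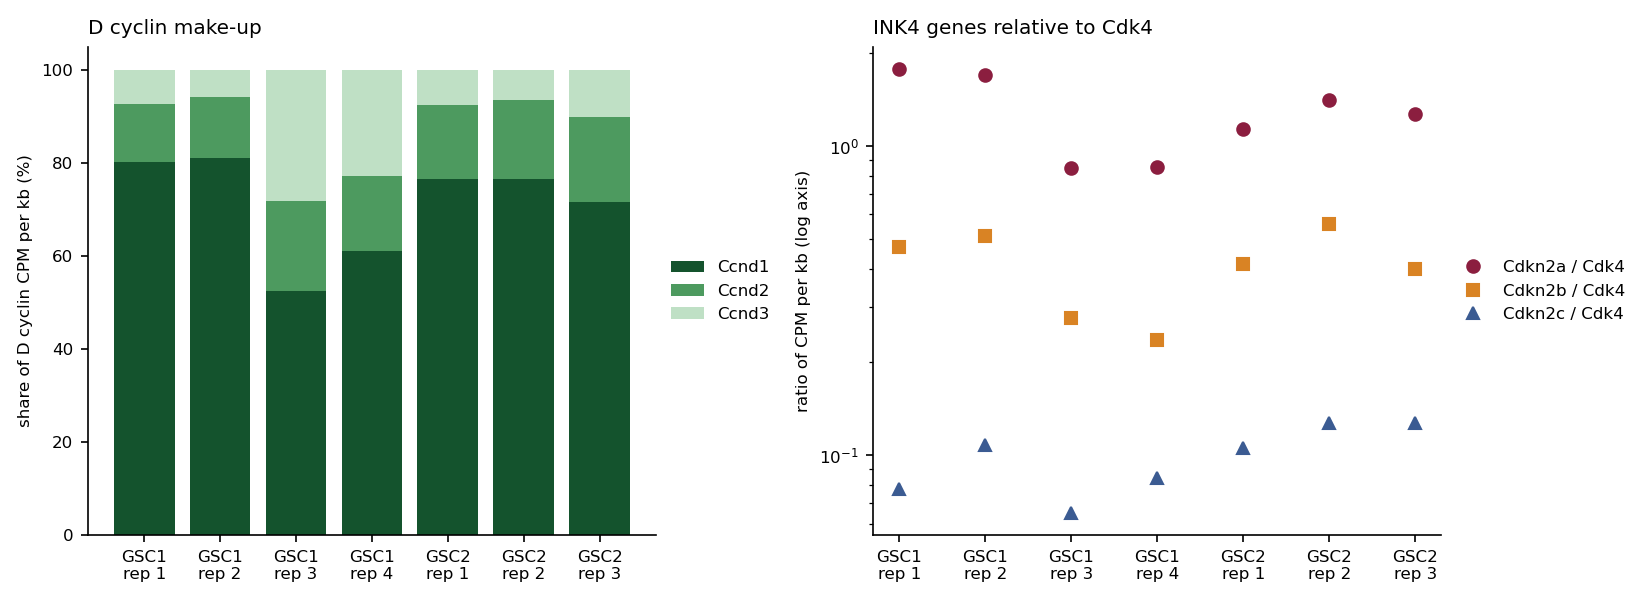
Left, share (%) of each D cyclin gene in the summed CPM per kb of transcript in each tumour. Right, CPM per kb of the 3 INK4 genes divided by that of Cdk4 on a log axis; Cdkn2a / Cdk4 is 1.77 and 1.70 in GSC1 replicates 1 and 2 and 0.849 and 0.855 in GSC1 replicates 3 and 4.

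Cdk4, the gene for the kinase that the GSC2 label names, was at 574, 540.3, 252 and 295 CPM in GSC1 and at 609, 328 and 472 CPM in GSC2. GSC2 replicate 1 was the highest tumour, and the other GSC2 tumours lay between the upper and lower GSC1 pairs. The log2 fold change was 0.18 (SE 0.38, 95% interval -0.71 to 1.07, unadjusted p = 0.654, edgeR adjusted p = 0.9999), an interval that spans changes of up to 1.07 on the log2 scale in favour of GSC2. Counts per mouse gene cannot separate the cells' own Cdk4 from a mouse transgene, and the species of the CDK4 in the label is not known here, so the values do not check the label. Cdk6, the gene for the second kinase, was at 10.1, 25.7, 3.06 and 4.52 CPM in GSC1 and 10.8, 7.01 and 3.96 CPM in GSC2, a difference of -0.58 on the log2 scale (SE 0.77, 95% interval -2.37 to 1.21). GSC1 replicate 2 was well above all other tumours, and without it the fold change was 0.30. Per kb of transcript, Cdk4 exceeded Cdk6 in every tumour, by 118 times in GSC1 replicate 2 and by 262 to 669 times in the other tumours. Cdk6 had the longest transcript of the 10, at 11525 bases, and the part of the length differences between libraries in this ratio was not tested.

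The start region of Cdk4 is shown because Cdk4 is a classic target of MYC proteins, which bind CACGTG. The sequence is the 250 bases before the annotated start, chr10:127063285-127063534, plus strand, GRCm38.p6, from RefSeq, with each CACGTG in capitals.
Cdk4: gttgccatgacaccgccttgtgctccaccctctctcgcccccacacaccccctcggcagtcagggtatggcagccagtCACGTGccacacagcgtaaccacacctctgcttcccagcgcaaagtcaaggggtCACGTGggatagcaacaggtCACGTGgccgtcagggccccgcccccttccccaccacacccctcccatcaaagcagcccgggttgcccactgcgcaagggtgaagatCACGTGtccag
There were 4 matches, starting 172, 118, 98 and 11 bases before the start. The motif reads the same on both strands and occurred at least once in 6.02% of 32851 promoter windows of this length, and 4 or more times in 7 of them. The window also held 1 match of GGGCGG on the opposite strand, which does not overlap these. A match describes letters and does not show binding. Mycn, the gene for N-MYC, was at 2.55, 1.40, 2.66 and 2.57 CPM in GSC1 and 8.65, 8.42 and 5.46 CPM in GSC2. All GSC2 tumours were higher, as was so for 3.05% of all genes tested. The log2 fold change was 1.71 (SE 0.38, unadjusted p = 0.00224, edgeR adjusted p = 0.524), which did not pass. Myc did not share this difference in level (log2 fold change 0.05, edgeR unadjusted p = 0.927), though the 2 genes were not tested against each other.

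Cdkn2a, the locus of p16INK4a and p19ARF, was at 442, 399.9, 93.2 and 109.9 CPM in GSC1 and 301, 201 and 259.8 CPM in GSC2. The GSC1 tumours split around the GSC2 tumours, with replicates 1 and 2 above all of them and replicates 3 and 4 below all of them. The means were 261 ± 185 and 254 ± 50.3 CPM, and the log2 fold change was -0.04 (SE 0.59, 95% interval -1.43 to 1.35, unadjusted p = 0.947, edgeR adjusted p = 0.9999). Per kb of transcript Cdkn2a ranked at or above the 95.4th percentile in every tumour, among the 97.2% of genes tested that had a transcript length. It had the highest median per kb of the 10 members, at 290.3 CPM per kb. This uses 1 transcript per gene, and that of Cdkn2a was the shortest of the 10, at 895 bases. In CPM the means of Ccnd1 and Cdk4 were higher (445 and 415 against 261 in GSC1, 675 and 470 against 254 in GSC2). Normal adult brain of young animals is known to express this gene at very low levels. p16INK4a inhibits CDK4 and CDK6, while p19ARF, read in another frame, inhibits Mdm2 and so stabilises p53. The deposited counts are per gene and do not tell the 2 products apart.

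The 2 products start at separate promoters, shown here because a gene count sums both. Each sequence is the 250 bases before a start annotated by RefSeq on the minus strand of GRCm38.p6, with GGGCGG or its reverse complement in capitals. The upstream window is chr4:89294620-89294869 and lies at the first exon of p19ARF, and the downstream window is chr4:89282193-89282442 and lies at that of p16INK4a.
Cdkn2a upstream: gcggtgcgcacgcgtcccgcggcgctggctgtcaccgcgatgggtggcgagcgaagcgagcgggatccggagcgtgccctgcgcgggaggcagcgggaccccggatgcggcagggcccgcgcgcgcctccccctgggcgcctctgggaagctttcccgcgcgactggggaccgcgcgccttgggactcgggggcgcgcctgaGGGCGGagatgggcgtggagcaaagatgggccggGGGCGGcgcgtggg
Cdkn2a downstream: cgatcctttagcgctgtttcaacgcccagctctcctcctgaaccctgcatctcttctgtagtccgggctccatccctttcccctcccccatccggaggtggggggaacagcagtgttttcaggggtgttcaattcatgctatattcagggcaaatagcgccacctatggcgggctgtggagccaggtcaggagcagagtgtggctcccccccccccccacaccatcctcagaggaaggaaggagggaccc
The upstream window held 2 matches of GGGCGG, starting 48 and 14 bases before the start, and the downstream window held none. Of all promoter windows 32.7% held the motif. The GC content was 78.4% upstream and 60.0% downstream. Neither window held TTTCGCGC, TTTGGCGC or CACGTG on either strand.

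Cdkn2b, the neighbour of Cdkn2a and the gene for p15INK4b, showed a similar pattern, at 183, 187, 47.3 and 47.0 CPM in GSC1 and 171, 124 and 127 CPM in GSC2. Again GSC1 replicates 1 and 2 were above and replicates 3 and 4 below all GSC2 tumours (log2 fold change 0.28, SE 0.57, 95% interval -1.05 to 1.60). Per kb, Cdkn2a was 2.52 to 3.75 times as high as Cdkn2b in the 7 tumours, a narrower range than that of either gene (4.74 and 3.98 times from lowest to highest). Cdkn2c, the gene for p18INK4c, was at 53.6, 70.4, 19.7 and 29.9 CPM in GSC1 and 77.3, 50.2 and 71.9 CPM in GSC2, a difference of 0.61 on the log2 scale (SE 0.44, 95% interval -0.42 to 1.65). For Cdkn2c 2 GSC2 tumours were above every GSC1 tumour, and GSC2 replicate 2 was inside the GSC1 range. Its level relative to Cdk4, per kb, was 0.0776, 0.108, 0.0651 and 0.0844 in GSC1 and 0.105, 0.127 and 0.127 in GSC2, so the lines overlapped by 1 tumour on each side. Cdkn2d, the fourth INK4 gene, was not analysed here.

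Rb1, the retinoblastoma gene, was at 44.0, 64.7, 71.1 and 45.8 CPM in GSC1 and 74.1, 77.2 and 48.7 CPM in GSC2, a difference of 0.24 on the log2 scale (SE 0.28, 95% interval -0.40 to 0.89). It ranged 1.75 times from lowest to highest, and GSC1 replicate 3, low for most other members, was the third highest tumour for Rb1. Rbl1, the gene for p107, was at 72.8, 116, 17.4 and 23.2 CPM in GSC1 and 91.2, 56.4 and 46.6 CPM in GSC2, a difference of 0.17 on the log2 scale (SE 0.67, 95% interval -1.39 to 1.73). It ranged 6.70 times, with the GSC2 tumours between the upper and lower GSC1 pairs or inside the upper pair. Rbl1 per kb was 1.58 and 1.72 times Rb1 in GSC1 replicates 1 and 2, 0.234 and 0.485 times Rb1 in GSC1 replicates 3 and 4, and 1.18, 0.699 and 0.916 times Rb1 in the GSC2 tumours. Rb1 is made in most cell types at a steady level, while Rbl1 is a target of E2F and is known to be highest in dividing cells.

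The start region of Rbl1 is shown because E2F binds sites of the form TTTCGCGC or TTTGGCGC. It is chr2:157204535-157204784, minus strand, GRCm38.p6, the 250 bases before the RefSeq start, with the match in capitals.
Rbl1: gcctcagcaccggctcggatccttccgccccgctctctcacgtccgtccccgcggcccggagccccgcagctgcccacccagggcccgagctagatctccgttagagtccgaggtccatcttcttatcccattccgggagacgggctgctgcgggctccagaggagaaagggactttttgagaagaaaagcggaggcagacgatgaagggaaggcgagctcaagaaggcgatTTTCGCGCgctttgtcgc
There was 1 match of TTTCGCGC, 18 bases before the start. GGGCGG matched once on the opposite strand, 226 bases before the start, not in capitals and not overlapping it. TTTCGCGC occurred in 0.256% and TTTGGCGC in 0.417% of the 32851 windows, on either strand. Of the 7 members with a promoter window in the RefSeq table (10 windows in all), only Rbl1 held either motif in it.

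Over the 10 members, 0 passed the test between the lines, as did 0% of all 16068 genes. At an unadjusted p under 0.05 there were 0 members, where 4.21% of all genes had one. The median log2 fold change of the members was 0.21 against -0.03 over all genes, and 8 of 10 were above 0, where 46.3% of all genes were. DESeq2 called 1.19% of all genes and limma-voom 0.00622%, which is 1 gene, and neither called a member. The direction of several members rested on single libraries: the number of folds above 0 was 5 without GSC1 replicate 3, 6 without GSC1 replicate 4 or GSC2 replicate 1, and 10 without GSC1 replicate 2. The fold of Cdk4 ran from -0.06 to 0.38, that of Cdkn2a from -0.35 to 0.34 and that of Rbl1 from -0.16 to 0.78 when each tumour was left out in turn. Without the 3 libraries low in long transcripts, which leaves 2 tumours a line, 5 of 10 folds were above 0 (50.7% of all genes), and Cdkn2a was at -0.76 (SE 0.26, unadjusted p = 0.0252, edgeR adjusted p = 0.250), the 1 member with an unadjusted p under 0.05, where 15.6% of all genes had one.

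**Figure D3:**
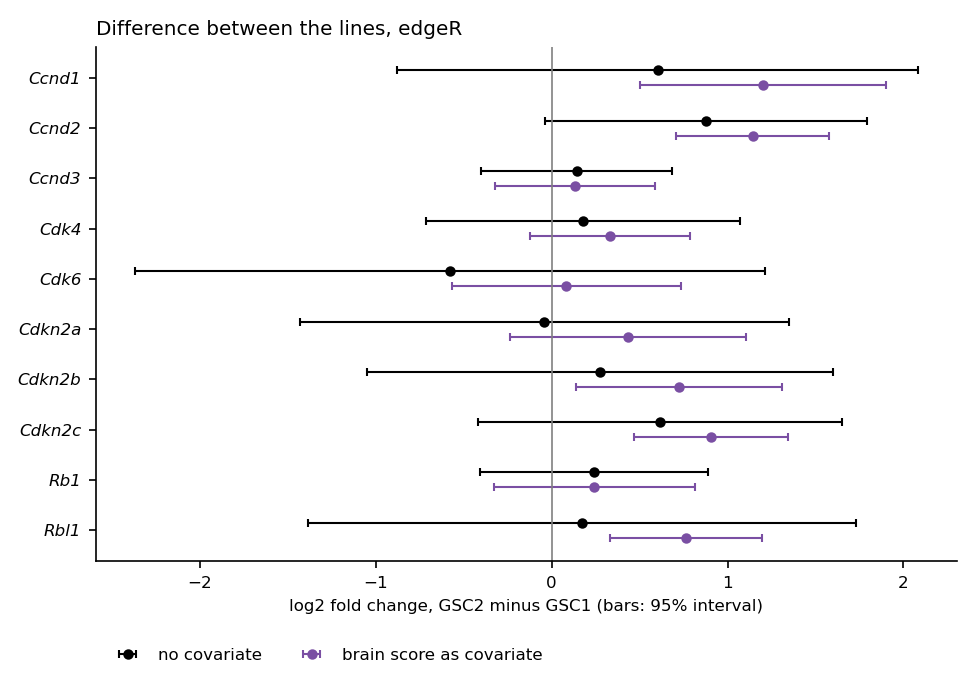
Log2 fold change of GSC2 minus GSC1 for each of the 10 genes with its 95% interval, without a covariate (black) and with the brain score as a covariate (purple). Every black interval includes 0, the nearest to excluding it being Ccnd2 at -0.04 to 1.80; the intervals are not adjusted for the number of genes.

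With the brain score in the fit, all 10 folds were above 0, and so were 54.7% of all genes. Ccnd1 was at 1.20 (SE 0.30, edgeR adjusted p = 0.120), Ccnd2 at 1.14 (SE 0.19, adjusted p = 0.0521), Cdkn2c at 0.91 (SE 0.19, adjusted p = 0.0806), Rbl1 at 0.76 (SE 0.19, adjusted p = 0.114) and Cdkn2b at 0.73 (SE 0.26, adjusted p = 0.220). No member passed after adjustment over all genes, of which 0.523% did. At an unadjusted p under 0.05 and higher in GSC2 there were 5 members, against 9.62% of all genes. Other cell cycle genes did so too in this fit, with 11 of 24 E2F targets and 17 of 20 mitotic genes (median folds 0.47 and 0.70, against 0.58 for the members). With the mitosis score in place of the brain score, Ccnd2 passed (log2 fold change 0.78, SE 0.15, edgeR adjusted p = 0.0499, higher in 3 of 3 GSC2 tumours than in any GSC1 tumour), as did 1.84% of all genes, and no other member did. In that fit the fold of Cdk6 was below 0 (-0.72, SE 0.28, edgeR adjusted p = 0.248) and did not pass. Those of Ccnd1 (0.57, SE 0.20, adjusted p = 0.203) and Cdkn2c (0.53, SE 0.21, adjusted p = 0.258) were above 0 and did not pass. With Ccnd2 these were the 4 members with an edgeR unadjusted p under 0.05 in that fit. The share of all genes with one is not given here. Over all settings the adjusted p of Ccnd2 ran from 0.0499 to 1.00, so its call was made in 1 setting only. Both scores come from the same tumours, and such fits describe differences at equal score.

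Pairs of tumours with nearly equal brain scores show the same values from another side, as single libraries without a test. At scores of 6.27 and 6.26, GSC1 replicate 1 and GSC2 replicate 1 had 574 and 609 CPM of Cdk4, 169.9 and 270.0 CPM of Ccnd2, 183 and 171 CPM of Cdkn2b and 647 and 774 CPM of Ccnd1, while Cdkn2a was at 442 in the GSC1 tumour and 301 CPM in the GSC2 tumour. At scores of 8.0 and 7.86, GSC1 replicate 4 and GSC2 replicate 2 had 295 and 328 CPM of Cdk4, but 226 and 697 CPM of Ccnd1, 101 and 261 CPM of Ccnd2 and 47.0 and 124 CPM of Cdkn2b. Cdkn2a was higher in the GSC1 tumour of the first pair and higher in the GSC2 tumour of the second (109.9 against 201 CPM). Of the other members, Cdk6, Cdkn2c, Rb1 and Rbl1 were higher in the GSC2 tumour of both pairs, and Ccnd3 in that of the first pair only. The second pair also differed in mitosis score (4.65 and 6.0) and in length contrast (-0.25 and 0.34), more than the first (6.47 and 6.63, 0.00 and 0.15). In both pairs the mean log2 CPM of the neuron markers was higher in the GSC1 tumour (6.84 and 6.10, 8.30 and 7.66). That of the oligodendrocyte markers was higher in the GSC2 tumour (5.69 and 6.42, 7.69 and 8.06). Choroid plexus markers were at -0.38 and 6.33 in the first pair and at 9.02 and 7.15 in the second. The part of these differences in the values was not tested.

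Across the tumours 8 of the 10 members fell as the brain score rose, in a fit with line and score for all genes. These were Cdk6 (slope of log2 level per unit of score -0.77, SE 0.11), Rbl1 (-0.74, SE 0.08), Ccnd1 (-0.67, SE 0.13), Cdkn2a (-0.62, SE 0.13), Cdkn2b (-0.59, SE 0.11), Cdkn2c (-0.45, SE 0.08), Ccnd2 (-0.38, SE 0.08) and Cdk4 (-0.36, SE 0.08), with edgeR adjusted p-values from 0.000682 for Rbl1 to 0.0107 for Cdk4. Ccnd3 (slope 0.06, SE 0.08, edgeR adjusted p = 0.600) and Rb1 (slope -0.00, SE 0.10, adjusted p = 0.975) did not pass. Of all genes 46.4% followed the score and 22.9% fell with it. The median slope was -0.52 for the members and 0.00 for all genes.

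The count of 8 falling members was 5 without GSC1 replicate 3, when Ccnd2, Cdk4 and Cdkn2a did not pass (10.0% of all genes fell), and 7 without GSC1 replicate 2, when Ccnd2 did not pass (10.8%). The slopes that no longer passed kept most of their size: without GSC1 replicate 3 that of Cdk4 was -0.33, that of Cdkn2a -0.53 and that of Ccnd2 -0.28, and without GSC1 replicate 2 that of Ccnd2 was -0.37. The count was 0 without the 3 libraries low in long transcripts, when 0.297% of all genes fell, in a fit of 4 tumours with 1 residual degree of freedom. All 10 slopes were then below 0, from -0.62 for Cdk6 to -0.09 for Ccnd3, as were 49.2% of all genes. The slopes of Ccnd1 (-0.11) and Ccnd2 (-0.10) lost most of their size in that fit, while that of Cdk4 was -0.27. With a transcript length trend removed from each library the count was 8 (25.7% of all genes fell). In GSC1 replicates 3 and 4 a high brain score, a low mitosis score and a low length contrast coincide, and they cannot be told apart there.

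**Figure D4:**
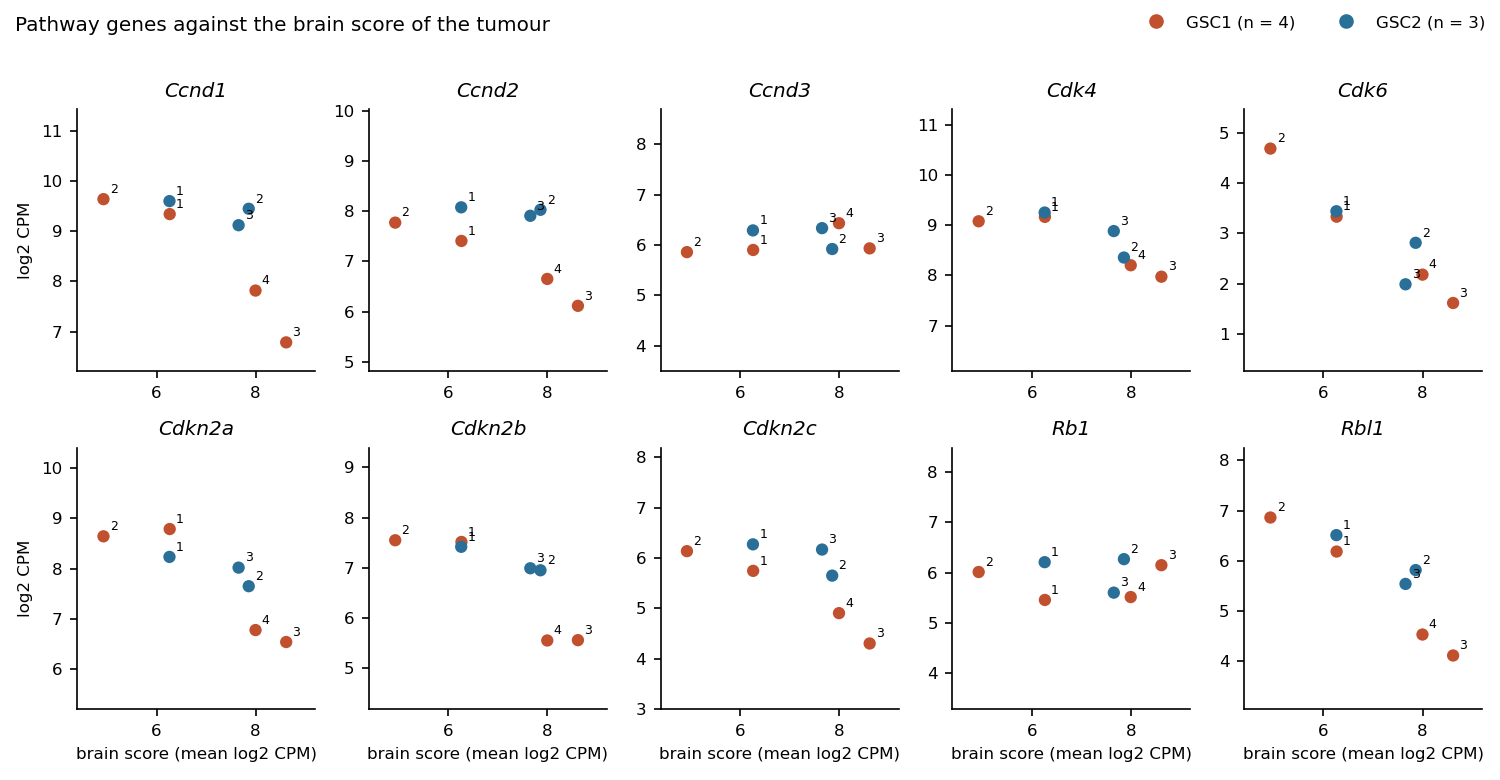
Log2 CPM of each gene against the brain score of the tumour, with the replicate number beside each point (GSC1 orange, GSC2 blue; each panel spans the same log2 range). The points of 8 genes descend to GSC1 replicates 4 and 3 at scores of 8.0 and 8.62, and those of Ccnd3 and Rb1 show no such descent.

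Among the 28 pairs of these 8 genes, Pearson's r of log2 CPM over the 7 tumours was 0.56 to 0.97, with a median of 0.89. Among the 17 pairs that include Ccnd3 or Rb1 it was -0.41 to 0.19. The 8 genes were picked for falling with 1 score over these 7 libraries, which by itself makes their pairs alike, so these are descriptions. The same holds for the r values that follow. Each is the highest over many genes on 7 tumours, which by itself makes it high. For the members other than Cdkn2b, the named gene with the pattern most like each, by the highest r over the 7 tumours among all genes tested, was the condensin gene Ncapg for Rbl1 (r = 0.999), the mitotic kinase gene Pbk for Cdkn2c (0.991), the nucleoporin gene Nup98 for Cdk6 (0.994), Rae1, which acts in RNA export and the spindle checkpoint, for Cdk4 (0.994), the telomere zinc finger gene Zbtb48 for Cdkn2a (0.997), Plekha4 for Ccnd1 (0.996), the heparanase gene Hpse for Ccnd2 (0.991), Immp2l for Ccnd3 (0.969) and the phosphatase subunit gene Ppp2r3a for Rb1 (0.980).

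The rest of the pathway was read in 8 lists of 91 genes, of which 90 were tested. None passed between the lines in edgeR, and Mycn and Mnat1 alone had an unadjusted p under 0.05. Of the CIP/KIP inhibitors, which act on CDK2 and also on assembled cyclin D kinases, Cdkn1a fell with the brain score (slope -0.47, SE 0.08, edgeR adjusted p = 0.00258), Cdkn1c rose (1.15, SE 0.25, adjusted p = 0.00788) and Cdkn1b did not pass (-0.11, SE 0.07). Cdkn1c, the gene for p57, was at 2.49, 1.62, 13.99 and 30.4 CPM in GSC1 and 5.34, 10.1 and 23.9 CPM in GSC2. The mean log2 CPM of the choroid plexus markers was -0.38, -1.11, 2.27 and 9.02 in GSC1 and 6.33, 7.15 and 7.95 in GSC2. For both, GSC1 replicates 1 and 2 were lowest and GSC1 replicate 4 and GSC2 replicate 3 highest. The tumours between did not share an order: GSC1 replicate 3 had more Cdkn1c than GSC2 replicates 1 and 2 but lower choroid plexus markers. The part of the choroid plexus signal in the Cdkn1c values was not tested. Cdkn1a, the gene for p21 and a p53 target, was at 170.4, 225, 65.0 and 80.6 CPM in GSC1 and 150.3, 124 and 94.3 CPM in GSC2.

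Across all genes 22.9% fell with the brain score, the share to set beside each count of falling genes here. Of 11 E2F, DP and pocket protein genes, 8 fell with the score, among them E2f1 (slope -0.62, SE 0.10) and E2f3 (-0.41, SE 0.07), and Rbl2, the p130 gene, did not pass (0.04, SE 0.08). Of 10 genes of cyclin E, cyclin A, CDK2 and their activation, 5 fell and 1 rose. Ccna2, the gene for cyclin A2, was at 123, 176, 47.0 and 56.6 CPM in GSC1 and 159.7, 103 and 120.3 CPM in GSC2 (slope -0.51, SE 0.06), while Ccne1 did not pass (-0.11, SE 0.08). Mnat1, a subunit of the CDK-activating kinase, was at 24.6, 23.7, 16.1 and 18.1 CPM in GSC1 and 44.2, 26.6 and 31.8 CPM in GSC2, without overlap (log2 fold change 0.73, SE 0.27, unadjusted p = 0.0303, edgeR adjusted p = 0.9999). Lin37, a MuvB gene, did not overlap in the other direction, at 15.5, 15.8, 14.3 and 16.1 CPM in GSC1 and 12.7, 13.1 and 13.4 CPM in GSC2. Of all genes tested, 5.58% had lines that did not overlap. Of 7 MuvB and B-Myb genes 4 fell, and of 7 Polycomb genes, whose products silence the INK4 locus, 4 fell and 1 rose. Ezh2, the Polycomb methyltransferase gene, had a slope of -0.73 (SE 0.10), and Bmi1 did not pass (-0.15, SE 0.06, edgeR adjusted p = 0.0654). In the list of cyclin D input and turnover 1 of 8 fell, Myc (-0.59, SE 0.08), and 2 rose, Fbxo31 (0.56, SE 0.09) and Cryab (0.65, SE 0.09), where 23.5% of all genes rose. Of the other genes of cyclin D turnover, Fbxo4 (0.15, SE 0.09), Ambra1 (-0.15, SE 0.08) and Gsk3b (-0.01, SE 0.08) did not pass.

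All 24 E2F target genes of S phase fell with the score, with a median slope of -0.54, and so did all 20 mitotic genes, with a median slope of -0.66, beside 22.9% of all genes. The mitotic genes are those of the mitosis score. Pcna, the replication clamp gene, was at 305, 321, 141 and 147 CPM in GSC1 and 336, 219 and 309 CPM in GSC2, and Cdk1, the mitotic kinase gene, at 144, 172, 44.9 and 65.3 CPM and 184, 105 and 123 CPM. Between the lines none of these genes had an unadjusted p under 0.05. Of the E2F targets 19 had folds above 0 (median 0.10), and of the mitotic genes 16 (median 0.14), where 46.3% of all genes did. These directions depended on the fit. Without the 3 libraries low in long transcripts 0 E2F targets and 1 mitotic gene had folds above 0 (medians -0.40 and -0.39), where 50.7% of all genes did. With the brain score as covariate all of both lists did (medians 0.47 and 0.70), where 54.7% of all genes did.

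**Figure D5:**
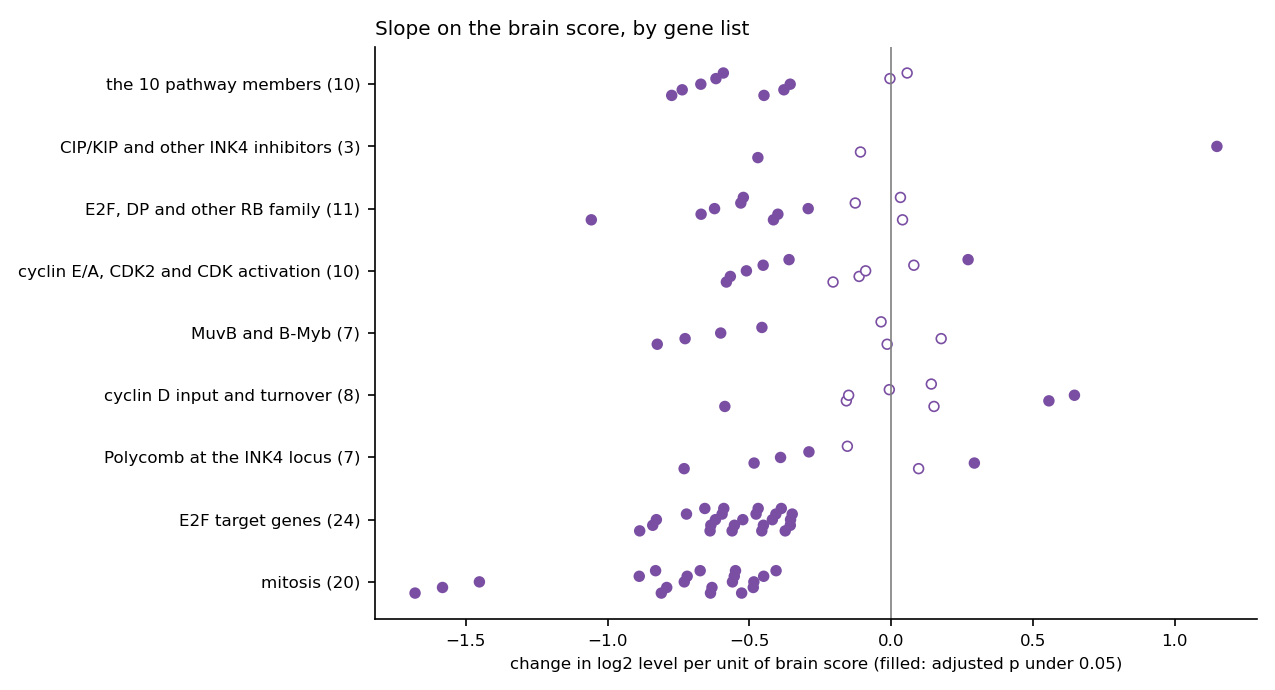
Slope of each gene on the brain score (change in log2 level per unit of score) for the 10 members and for 8 lists of other pathway genes, filled where the adjusted p was under 0.05. All E2F target and mitosis genes lie left of 0, as do the 8 members that fell, and Cdkn1c is the point farthest right at 1.15.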

How the data were processed

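RNA of 7 mouse tumours was sequenced, 1 library a tumour, and groups were taken from the labelled mutation. The authors deposited raw counts of reads per gene for each tumour; per the submitters' processing notes TopHat2 2.0.11 and HTSeq were used, with the builds mm9 and dm3 named without a role. Of 37620 identifiers 32897 had a symbol, and 0.485% of reads fell on the rest. The 5 summary lines that close each count table entered neither library sizes nor any test. Transcript lengths came from GENCODE vM21, and promoter windows from the RefSeq table of GRCm38.p6.

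Counts were scaled by TMM, filtered with filterByExpr and compared with edgeR's quasi-likelihood test (edgeR 4.0.16, R 4.3.3), with Benjamini-Hochberg adjustment over all genes and a threshold of 0.05. Standard errors are the log2 fold change divided by the root of F, and 95% intervals use the total degrees of freedom. A second fit held line and brain score (prior count 2). Alternatives were limma-voom (limma 3.58.1), DESeq2 1.42.0, other factors (upper-quartile, RLE), other filters (none, or 5 CPM on average), a replicate block, score covariates, a length offset and leaving out libraries. The length contrast of a library sets the median deviation of genes with transcripts from 8000 bases up against that of genes with transcripts up to 2000 bases. Genes named from each pathway list were the 3 with the lowest unadjusted p between the lines, and beside each member the gene with the highest r (that of Cdkn2b is not reported here); Myc, E2f1, Rbl2, Ccne1, Ambra1, Gsk3b, Fbxo31 and Cryab were named after their values were seen. The 10 members and the lists were chosen with earlier results of these data known. Scripts were tested on simulated data.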

Additional observations from a re-analysis of the deposited data

Results flagged for a closer look

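Of 34 groups of 4 tumours checked for a value far from the rest, 2 were picked out, and chance picks out about 1 in 20. Ccnd3 in GSC1 replicate 4, at 86.5 CPM, lay far above the other 3 GSC1 tumours, at 58.1 to 61.2 CPM. Mycn in GSC1 replicate 2, at 1.40 CPM, lay far below the other 3, at 2.55 to 2.66 CPM.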

How the results depend on the processing

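Between the lines 0 genes passed in edgeR's test. The count was 1 without a filter, 192 with DESeq2, 1 with limma-voom, 84 with the brain score and 296 with the mitosis score as covariate, 55 without the 3 libraries low in long transcripts, and 0 with any 1 tumour left out. The cause of these differences was not tested. Genes following the brain score numbered 7458, 990 without those 3 libraries, and 3495 to 7982 with each tumour left out; the members falling were 8, 0 and 5 to 8.

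Some folds turned: without the 3 libraries Cdk4 was -0.26, Cdkn2b -0.34 and Rbl1 -0.36; with the brain score Cdk6 was 0.084 and Cdkn2a 0.43; with limma-voom Cdkn2a was 0.28. With each tumour left out the folds ran from -0.057 to 0.38 (Cdk4), -0.98 to 0.30 (Cdk6), -0.35 to 0.34 (Cdkn2a), -0.015 to 0.61 (Cdkn2b) and -0.16 to 0.78 (Rbl1). The slope of Ccnd3 was -0.090 without the 3 libraries and ran from -0.0058 to 0.13 with each tumour left out. That of Rb1, near 0, was 0.00024 with RLE factors, 0.030 with upper-quartile factors, 0.022 at a mean of at least 5 CPM, 0.00021 with DESeq2, 0.0088 with oligodendrocyte markers only and 0.030 with the length offset, and ran from -0.13 to 0.12. Ccnd2 passed with the mitosis covariate (0.78). The other folds and slopes kept their direction and side of the threshold, with 2 exceptions: the 8 slopes that passed were lost without the 3 libraries, and those of Ccnd2, Cdk4 and Cdkn2a were lost without GSC1 replicate 3, as was Ccnd2 without GSC1 replicate 2.

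The tumours of the lines share replicate numbers 1 to 3, which were not taken as pairs. Deviations of same-numbered tumours correlated at 0.58, -0.31 and 0.41. Those of differently numbered tumours ran from -0.64 to 0.70, the highest being GSC1 replicate 2 with GSC2 replicate 1. The brain score varied within both lines, so these correlations cannot tell whether the numbers mark pairs. With the replicate block 0 genes passed and Ccnd2 was at 0.90. The score from neuron or oligodendrocyte markers alone, the length offset in the score fit and the score fit without the 3 libraries were chosen after seeing the data. Cdk6, at 3.06 to 25.7 CPM the lowest member, had the widest interval between the lines.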
